A study of Mus musculus with 14 samples.

Results

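The genes described here encode 8 chromatin repressors that are known for holding germline genes silent outside the germ line. They are E2f6, Mga, Max and L3mbtl2, which belong to one polycomb complex, Ehmt1, Ehmt2 and Setdb1, which encode histone methyltransferases, and Trim28, which encodes a corepressor. They were chosen by name, with earlier results of these data known, and matched by Ensembl identifier. They are 8 of the 37991 gene identifiers in each count table. RNA of J1 cells, a line of mouse embryonic stem cells (strain 129S4/SvJae), was measured in 14 poly(A)-selected libraries that form 7 groups of 2. In experiment 1, triple-knockout (TKO) cells, in which Dnmt1, Dnmt3a and Dnmt3b are disrupted and with them DNA methylation, and wild-type (WT) cells were each given the PRC1 inhibitor PRT4165 or its vehicle DMSO. PRC1 is a polycomb complex that ubiquitinates histone H2A. In experiment 2, untreated Tet1-KO TKO cells, which lack Tet1 as well as the DNA methyltransferases, were measured with untreated TKO cells and untreated WT cells. Tet1 encodes an enzyme that oxidises methylated cytosine. The sources used here give neither the inhibitor's dose and duration nor whether each mutant line was a single clone. The comparisons ask how the repressors' own transcripts responded to the loss of DNA methylation, to inhibition of PRC1 and to the loss of Tet1.

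Germline genes that depend on promoter DNA methylation for silence are also bound by protein repressors. MGA pairs with MAX and, together with E2F6, brings a polycomb complex (called PRC1.6) to E-box and E2F motifs, while L3MBTL2 is a structural subunit of that complex. EHMT1 and EHMT2 act as a pair and place mono- and dimethylation on lysine 9 of histone H3 (H3K9), and SETDB1 places H3K9 trimethylation where TRIM28 recruits it, above all at retrotransposons and imprinted regions bound by zinc finger proteins. Loss of E2f6, Mga, Max, L3mbtl2, Ehmt2 or Setdb1 in mouse embryonic stem cells is known to release overlapping sets of meiotic genes.

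The libraries held 23354015 to 41844823 counts, and the 8 genes had at least 778 counts in every library. The labels held up against the targeted genes. Dnmt1, Dnmt3a and Dnmt3b averaged 128 ± 0.0613, 41.4 ± 0.603 and 42.6 ± 1.93 CPM (counts scaled to each library's effective size) in TKO cells with vehicle, against 429 ± 6.97, 101 ± 2.49 and 188.0 ± 13.2 CPM in WT cells with vehicle (SD, n = 2 each). Tet1 averaged 168 ± 47.0 CPM in Tet1-KO TKO cells and 766 ± 34.9 CPM in TKO cells (SD, n = 2 each). Transcripts of the disrupted genes were therefore still counted, at lower levels. Markers of embryonic stem cells (Pou5f1, Nanog, Sox2, Zfp42, Esrrb and Klf4) summed to between 2247 and 4243 CPM in the 14 libraries. Markers of trophoblast (Krt8, Krt18, Krt19, Cdx2, Hand1 and Gata3) summed to 904 and 858 CPM in the TKO libraries with vehicle, against 83.02 and 74.0 CPM in the WT libraries with vehicle, and all 6 rose in TKO cells in both experiments. In experiment 2 they summed to 514 and 709 CPM in Tet1-KO TKO cells, 148 and 161 CPM in TKO cells and 53.1 and 60.2 CPM in WT cells. None of the 6 had 0 counts in any group. Of the embryonic stem cell markers 1 rose and 5 fell in TKO cells in both experiments. Markers of endoderm summed to 95.4 and 94.4 CPM in the TKO libraries with vehicle, against 146 and 169 CPM in the WT libraries with vehicle, and markers of feeder fibroblasts to 158 and 158 CPM in the TKO libraries, against 224 and 229 CPM in the WT libraries. Of the 6 feeder markers 2 were higher and 2 lower with vehicle, with a median log2 fold change of 0.13. Untreated, endoderm markers summed to 85.9 and 184 CPM in Tet1-KO TKO, 42.98 and 72.2 CPM in TKO and 108 and 188 CPM in WT libraries. Feeder markers summed to 165 and 188 CPM in untreated Tet1-KO TKO, 114.5 and 114 CPM in TKO and 258 and 213 CPM in WT libraries. The part of these shifts in the differences between genotypes below was not tested, and in bulk RNA fewer cells of a type cannot be told apart from less RNA per cell.

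The repressors were expressed at unlike levels, compared here as CPM per kilobase of exon. In TKO cells with vehicle Trim28 stood at 585 ± 1.91, Ehmt2 at 37.5 ± 0.624, L3mbtl2 at 30.3 ± 0.113, Setdb1 at 27.8 ± 0.566 and Max at 24.5 ± 0.310 (SD, n = 2 each). Mga followed at 19.8 ± 0.575, Ehmt1 at 12.8 ± 0.291 and E2f6 at 4.77 ± 0.137. WT cells with vehicle held Trim28 at 656 ± 6.28 CPM per kilobase, far above Max at 37.9 ± 1.02, Ehmt2 at 33.0 ± 1.01 and Setdb1 at 24.9 ± 0.149 CPM per kilobase (SD, n = 2 each). L3mbtl2 followed at 18.6 ± 0.457, Mga at 16.0 ± 0.753, Ehmt1 at 12.04 ± 0.00605 and E2f6 at 7.47 ± 0.0668 CPM per kilobase. In neither group did neighbours in the order overlap between libraries. Trim28 was first and E2f6 last in all 7 groups. Max and L3mbtl2 overlapped in Tet1-KO TKO cells, Mga and Max in untreated TKO cells, and Mga and L3mbtl2 in untreated WT cells.

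**Figure D1:**
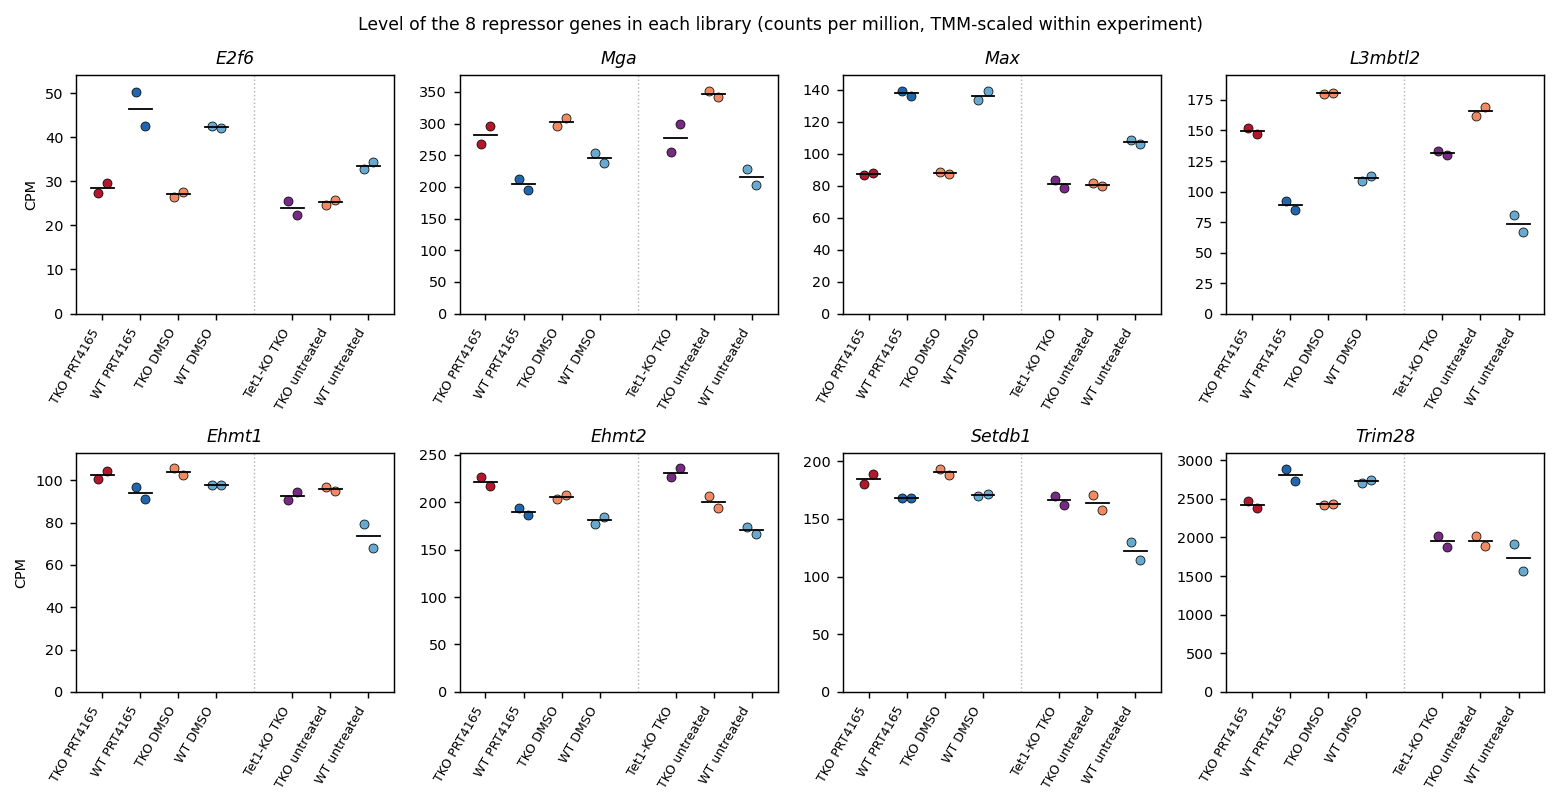
CPM of each of the 8 repressor genes (vertical axes, starting at 0) in the 2 libraries of every group; points are libraries, short lines are group means, and the dotted line parts experiment 1 from experiment 2, which were scaled separately. E2f6 and Max lie lower, and Mga and L3mbtl2 higher, in every TKO library than in every WT library of the same experiment.

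In TKO cells with vehicle, the subunits of the polycomb complex moved in opposite directions: E2f6 and Max were 1.56-fold and 1.55-fold lower, and L3mbtl2 and Mga were 1.63-fold and 1.23-fold higher, than in WT cells with vehicle. E2f6, the factor that reads the E2F motif, had 26.5 and 27.6 CPM in the TKO libraries and 42.5 and 42.01 CPM in the WT libraries. Max, the partner through which MGA binds the E-box, had 88.8 and 87.2 CPM in the TKO libraries and 134 and 139 CPM in the WT libraries. For both genes every TKO library lay below every WT library. L3mbtl2 had 179.9 and 181 CPM in the TKO libraries and 109 and 113 CPM in the WT libraries. Mga, the scaffold of the complex, had 297 and 309 CPM in the TKO libraries and 254 and 238 CPM in the WT libraries. For these genes every TKO library lay above every WT library. Such a separation of 2 and 2 libraries also held for Ehmt1, which was not called. The share of all genes with such a separation was not counted, so it does not mark these genes out. The log2 fold changes were −0.64 ± 0.07 for E2f6 (adjusted p = 1.85e-08), −0.63 ± 0.05 for Max (adjusted p = 1.03e-11), 0.70 ± 0.05 for L3mbtl2 (adjusted p = 2.69e-12) and 0.30 ± 0.05 for Mga (adjusted p = 1.94e-05), given with standard errors and edgeR's quasi-likelihood test.

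The promoters of E2f6 and L3mbtl2, the members with the largest fall and the largest rise under vehicle, are shown because the mutants lack the enzymes that methylate CpG. They run from 250 bases before to 50 bases after the start site in RefSeq (build GRCm38.p6), 5′ to 3′ on the gene's strand, with each CpG in capitals. Neither one was measured for methylation here.
E2f6, chr12:16810715-16811014, + strand: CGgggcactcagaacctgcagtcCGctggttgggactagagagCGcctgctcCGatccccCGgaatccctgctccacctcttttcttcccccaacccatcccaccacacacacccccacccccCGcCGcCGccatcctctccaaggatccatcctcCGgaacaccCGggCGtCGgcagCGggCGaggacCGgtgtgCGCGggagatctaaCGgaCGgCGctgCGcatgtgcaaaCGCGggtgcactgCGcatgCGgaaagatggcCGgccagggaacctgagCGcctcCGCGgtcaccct
L3mbtl2, chr15:81663639-81663938, + strand: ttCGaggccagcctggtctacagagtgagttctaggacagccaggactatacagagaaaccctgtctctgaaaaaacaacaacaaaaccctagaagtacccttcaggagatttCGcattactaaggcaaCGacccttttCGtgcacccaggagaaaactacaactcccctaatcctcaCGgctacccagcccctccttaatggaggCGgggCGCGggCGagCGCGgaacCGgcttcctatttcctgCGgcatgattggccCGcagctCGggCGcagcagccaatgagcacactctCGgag
The E2f6 window held 29 CpGs and the L3mbtl2 window 17, beside a median of 7 over the 32851 promoters of the same length. The other members' windows, 1 per gene and 2 for Ehmt2, held 15 (Setdb1) to 40 (the second start of Ehmt2).

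The H3K9 methyltransferases and Trim28 differed less between TKO and WT cells with vehicle. Ehmt2 had 203 and 208 CPM in the TKO libraries and 177 and 185 CPM in the WT libraries, a log2 fold change of 0.18 ± 0.05 (adjusted p = 0.000908). Setdb1 had 194 and 188 CPM in the TKO libraries and 170.1 and 172 CPM in the WT libraries, a log2 fold change of 0.16 ± 0.04 (adjusted p = 0.00254). Both rose by little, with no overlap between the groups. Ehmt1 averaged 104 ± 2.36 CPM in TKO cells and 97.7 ± 0.0491 CPM in WT cells (SD, n = 2 each) and was not called (log2 fold change 0.09, 95% interval −0.01 to 0.19). Trim28 fell, with 2426 and 2438 CPM in the TKO libraries and 2709 and 2746 CPM in the WT libraries (log2 fold change −0.17 ± 0.05, adjusted p = 0.00257). The calls of Trim28 and Ehmt1 depended on the scaling: with library size alone, which moved the median of all genes by 0.15, Trim28 was at −0.01 (adjusted p = 0.751) and Ehmt1 was called higher at 0.24 (adjusted p = 8.64e-05).

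Under vehicle, 7 of the 8 repressors passed the test, 4 higher and 3 lower in TKO cells, while 69.0% of the 16711 genes tested passed it. A call alone therefore does not mark these genes out. With vehicle the median absolute log2 fold change was 0.24 over the 8 genes and 0.47 over all genes tested.

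The same genotypes were compared without vehicle in experiment 2, in libraries that experiment 1 does not share. There 6 of the 8 passed, 4 higher and 2 lower, beside 50.2% of the 16303 genes tested. The median absolute log2 fold change was closer to that of all genes than with vehicle, at 0.41 over the 8 genes and 0.46 over all genes tested. L3mbtl2 had 162 and 169.5 CPM in the TKO libraries and 80.5 and 66.9 CPM in the WT libraries, a 2.25-fold rise (log2 fold change 1.17 ± 0.11, adjusted p = 3.69e-06). Mga had 352 and 342 CPM in the TKO libraries and 228 and 204 CPM in the WT libraries (log2 fold change 0.68 ± 0.11, adjusted p = 0.000268). The groups did not overlap for either gene. E2f6 had 24.7 and 25.8 CPM in the TKO libraries and 32.7 and 34.3 CPM in the WT libraries (log2 fold change −0.41 ± 0.11, adjusted p = 0.0106). Max had 81.5 and 79.9 CPM in the TKO libraries and 108 and 106 CPM in the WT libraries (log2 fold change −0.41 ± 0.09, adjusted p = 0.00289). Both were lower in every TKO library. E2f6 lost its call without TKO replicate 1 (adjusted p = 0.0940) or TKO replicate 2 (adjusted p = 0.0542).

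Among the H3K9 enzymes in untreated cells, Setdb1 rose to 171 and 158 CPM in the TKO libraries, against 129.7 and 115 CPM in the WT libraries (log2 fold change 0.43 ± 0.10, adjusted p = 0.00401). Ehmt1 rose to 96.7 and 95.1 CPM in the TKO libraries, against 79.4 and 67.8 CPM in the WT libraries (log2 fold change 0.38 ± 0.10, adjusted p = 0.00832). Ehmt2 averaged 201 ± 9.02 CPM in TKO cells and 171 ± 5.23 CPM in WT cells (SD, n = 2 each); its log2 fold change of 0.23 missed the threshold (adjusted p = 0.0564). Trim28 had 2025 and 1891 CPM in the TKO libraries, against 1918 and 1563 CPM in the WT libraries, and its groups overlapped (log2 fold change 0.17, 95% interval −0.09 to 0.42). Setdb1 lost its call without TKO replicate 1 (adjusted p = 0.0643), and Ehmt1 lost it without TKO replicate 1 (adjusted p = 0.0671) or TKO replicate 2 (adjusted p = 0.0502). Ehmt2 was called higher in DESeq2 (adjusted p = 0.0436) and with library size alone (adjusted p = 0.0323). Without WT replicate 1, Ehmt2 (adjusted p = 0.0461) and Trim28 (log2 fold change 0.31, adjusted p = 0.0174) were called higher.

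Across both experiments, 5 of the 8 genes were called in the same direction: Mga, L3mbtl2 and Setdb1 higher and E2f6 and Max lower in TKO cells. That is 62.5% of the repressors, beside 43.6% of the 15878 genes tested in both. The sign was the same for 7 of the 8, or 87.5%, beside 81.7% of all genes, and Trim28 was the exception.

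**Figure D2:**
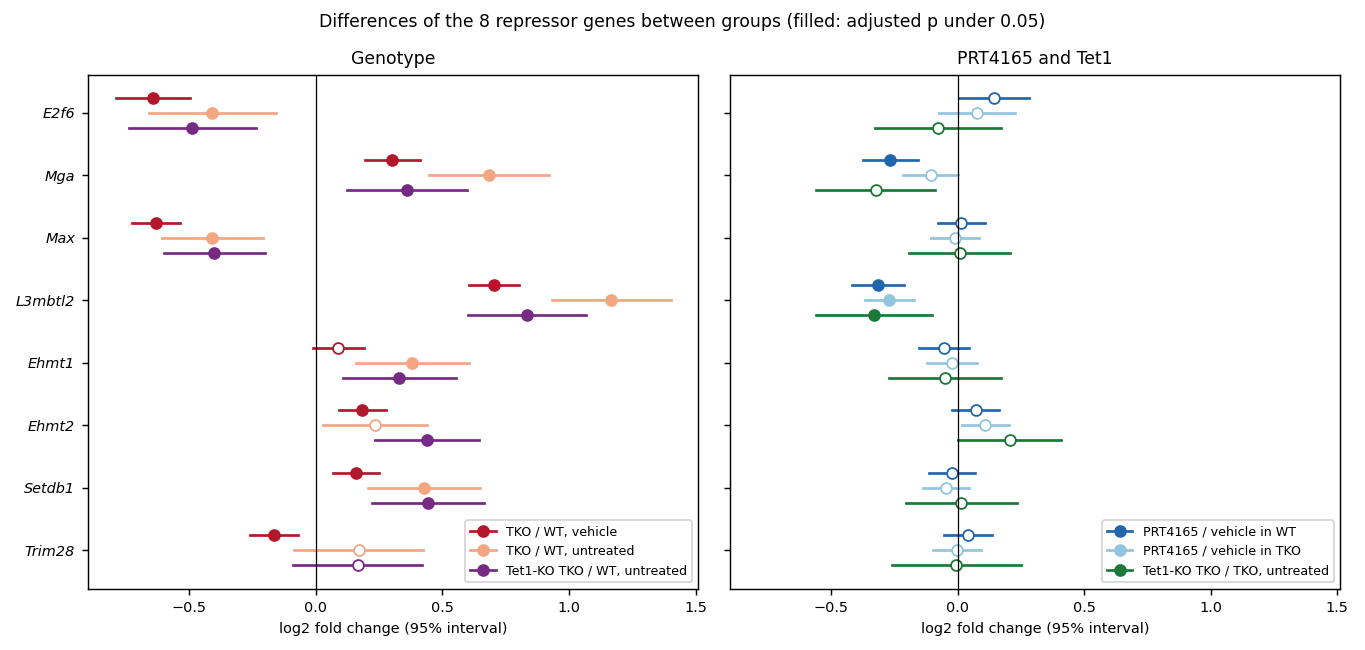
Log2 fold changes (horizontal axis) of the 8 repressor genes with 95% intervals, for the genotype comparisons on the left and for PRT4165 and the loss of Tet1 on the right; filled points passed an adjusted p of 0.05. L3mbtl2 lies furthest right among the genotype comparisons, at 0.70, 1.17 and 0.84, and left of 0 in all 3 comparisons of the right panel.

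PRT4165 was compared with vehicle within each genotype. In WT cells 2 of the 8 passed the test, both lower with the inhibitor. Of all genes tested, 37.6% were called in either direction and 18.7% were lower. With only 8 genes, this count does not set the repressors apart from all genes. L3mbtl2 had 92.6 and 85.3 CPM with PRT4165 and 109 and 113 CPM with vehicle (log2 fold change −0.31 ± 0.05, adjusted p = 1.91e-05). Mga had 213 and 196 CPM with PRT4165 and 254 and 238 CPM with vehicle (log2 fold change −0.27 ± 0.05, adjusted p = 0.000346). The treated libraries lay below the vehicle libraries for both genes. The 95% intervals of Max, Ehmt1, Ehmt2, Setdb1 and Trim28 all fell between −0.15 and 0.17 on the log2 scale. E2f6 had 50.2 and 42.6 CPM with PRT4165 and 42.5 and 42.01 CPM with vehicle and was not called (log2 fold change 0.14, adjusted p = 0.0981), but it was called without PRT4165 replicate 2 (log2 fold change 0.26, adjusted p = 0.00790).

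In TKO cells only L3mbtl2 passed, beside 39.5% of all genes tested. It had 152 and 147 CPM with PRT4165 and 179.9 and 181 CPM with vehicle (log2 fold change −0.27 ± 0.05, adjusted p = 6.09e-05). Mga had 268 and 296 CPM with PRT4165 and 297 and 309 CPM with vehicle, which missed the threshold (log2 fold change −0.11, adjusted p = 0.114), but it was called without PRT4165 replicate 2 (log2 fold change −0.19, adjusted p = 0.0187). Ehmt2 had 227 and 217 CPM with PRT4165 and 203 and 208 CPM with vehicle (log2 fold change 0.11, adjusted p = 0.0552), and it was called in 4 of the 8 fits that left out 1 library, those without a WT library. L3mbtl2 shares 1023 of its 5945 exon bases with Chadl on the opposite strand, and the sources used here do not say whether counting used strand. Chadl, named here after its values were seen, rose with PRT4165, to 5.22 and 6.56 CPM in WT cells, against 1.07 and 1.37 CPM with vehicle, and to 6.82 and 7.08 CPM in TKO cells, against 1.45 and 1.77 CPM with vehicle. Its part in the L3mbtl2 values was not tested.

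The response to PRT4165 was tested for a difference between genotypes, and none of the 8 repressors passed in edgeR's interaction test, nor in DESeq2, beside 3.89% of all genes tested. Mga alone had an unadjusted p under 0.05 (0.0437, adjusted p = 0.264), with a difference of 0.16 on the log2 scale and a 95% interval of 0.00 to 0.31. For the other 7 genes the interval of the difference reached at most −0.27 on one side and 0.19 on the other. TKO cells with PRT4165 were also set against WT cells with vehicle, where 7 of the 8 passed, beside 76.2% of all genes tested. L3mbtl2 (0.43 ± 0.05), Ehmt2 (0.29 ± 0.04), Mga (0.20 ± 0.05) and Setdb1 (0.11 ± 0.04) were higher, and Max (−0.64 ± 0.05), E2f6 (−0.57 ± 0.07) and Trim28 (−0.17 ± 0.05) were lower, as log2 fold changes with standard errors. Setdb1 (adjusted p = 0.0217) lost this call in 7 of the 8 fits that left out 1 library, with adjusted p up to 0.207, and Mga lost it without TKO PRT4165 replicate 2 (adjusted p = 0.0730). With library size alone, Trim28 was not called (log2 fold change −0.03, adjusted p = 0.476) and Ehmt1 was called higher (log2 fold change 0.21).

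Mga and L3mbtl2 thus took the same order over the 4 groups of experiment 1. From high to low their means ran TKO with vehicle, TKO with PRT4165, WT with vehicle and WT with PRT4165, and no neighbouring groups overlapped between libraries. For Mga the step between the TKO groups was not called in edgeR (adjusted p = 0.114). Its nearest libraries there were at 296.8 CPM with vehicle and 295.8 CPM with PRT4165, so this step of the order is not established. L3mbtl2 averaged 149.6 ± 3.91 CPM with PRT4165 and 180.4 ± 0.670 CPM with vehicle in TKO cells, and 88.9 ± 5.21 CPM with PRT4165 and 111 ± 2.72 CPM with vehicle in WT cells (SD, n = 2 each). Mga averaged 282 ± 19.9 CPM with PRT4165 and 303 ± 8.82 CPM with vehicle in TKO cells, and 204 ± 12.4 CPM with PRT4165 and 246 ± 11.6 CPM with vehicle in WT cells (SD, n = 2 each). E2f6 and Max ordered by genotype. For Max the PRT4165 and vehicle libraries overlapped within each genotype, at 87.4 ± 1.20 and 88.0 ± 1.12 CPM in TKO cells and at 138 ± 2.40 and 136 ± 3.68 CPM in WT cells. For E2f6 they overlapped in TKO cells, at 28.5 ± 1.595 and 27.0 ± 0.776 CPM, and not in WT cells, at 46.4 ± 5.39 and 42.3 ± 0.378 CPM. Ehmt2 was highest in TKO cells with PRT4165, at 222 ± 7.08 CPM, and lowest in WT cells with vehicle, at 181 ± 5.53 CPM.

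Between Tet1-KO TKO and TKO cells 1 of the 8 was called, and it was lower in Tet1-KO TKO cells. Of all genes tested, 22.0% were called in either direction and 10.4% were lower. L3mbtl2 had 133 and 130.1 CPM in the Tet1-KO TKO libraries and 162 and 169.5 CPM in the TKO libraries (log2 fold change −0.33 ± 0.10, adjusted p = 0.0413). This call was lost without any one of the 4 libraries compared, with adjusted p between 0.130 and 0.252. Mga had 255 and 299 CPM in the Tet1-KO TKO libraries and 352 and 342 CPM in the TKO libraries. Its log2 fold change of −0.32 ± 0.11 missed the threshold (adjusted p = 0.0508) and passed it in DESeq2 (adjusted p = 0.0284) and in edgeR with the replicate number as a block (adjusted p = 0.0402). Neither gene overlapped between the groups. Ehmt2 averaged 231 ± 7.44 CPM in Tet1-KO TKO cells and 201 ± 9.02 CPM in TKO cells (SD, n = 2 each) and was not called (log2 fold change 0.21, adjusted p = 0.140). For E2f6, Max, Ehmt1, Setdb1 and Trim28 the log2 fold changes lay between −0.08 and 0.02, with 95% intervals that reached −0.33 and 0.25.

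Against untreated WT cells, Tet1-KO TKO cells differed in 7 of the 8 repressors, beside 50.7% of all genes tested. L3mbtl2 (0.84 ± 0.11), Setdb1 (0.44 ± 0.10), Ehmt2 (0.44 ± 0.09), Mga (0.36 ± 0.11) and Ehmt1 (0.33 ± 0.10) were higher, and E2f6 (−0.49 ± 0.11) and Max (−0.40 ± 0.09) lower, as log2 fold changes with standard errors. Trim28 was at 0.16, with a 95% interval of −0.09 to 0.42. Mga lost its call without WT replicate 2 (adjusted p = 0.0519) or Tet1-KO TKO replicate 2 (adjusted p = 0.150), Ehmt1 lost it without WT replicate 2 (adjusted p = 0.0734) or Tet1-KO TKO replicate 2 (adjusted p = 0.0885), and Trim28 gained one without WT replicate 1 (log2 fold change 0.31, adjusted p = 0.0172). This comparison and the 2 before it in experiment 2 share groups, so their values are not independent.

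Of the 12 other subunits of the PRC1.6 complex, 9 were lower and 2 higher in TKO cells with vehicle, with a median log2 fold change of −0.40, beside 34.2% of all genes lower and a median of 0.01 over all genes. Rnf2, an E3 ligase subunit that ubiquitinates histone H2A, was at −1.32 ± 0.04, the WD-repeat subunit Wdr5 at −0.65 ± 0.04 and the histone deacetylase Hdac1 at −0.60 ± 0.05. Rnf2 shares 158 exon bases with Trmt1l on the opposite strand. It had 122 and 127 CPM in the TKO libraries, against 311 and 309.7 CPM in the WT libraries. Tfdp2, a dimerisation partner of E2F proteins, was higher at 0.60 ± 0.05. In untreated cells 5 were lower and 1, Tfdp2, was higher (0.34 ± 0.10), so that 6 of 12 were called beside 50.2% of all genes. Ring1, Rnf2, Rybp, Hdac1 and Wdr5 were the 5 lower in both experiments, a set named after its values were seen. Of the 12, 50% were called in the same direction in both experiments, beside 43.6% of the 15878 genes tested in both. The sign was the same for 66.7%, which is below the 81.7% of all genes. Ring1, the paralogue of Rnf2, was at −0.87 ± 0.10 with vehicle and −1.01 ± 0.16 untreated. In untreated cells Rybp and Wdr5 lost their calls without TKO replicate 2, and Tfdp2 did so without WT replicate 2 or without either TKO replicate. Under library size alone the split with vehicle was also 2 higher and 9 lower. Yaf2, the other higher gene with vehicle (0.26 ± 0.11), lost its call in DESeq2 and without the filter on low counts. It also lost it in 4 of the 8 fits that left out 1 library.

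With PRT4165, 3 of the 12 were called in each genotype, beside 37.6% of all genes in WT cells and 39.5% in TKO cells: in WT cells Rybp (0.24 ± 0.04) was higher and Cbx3 (−0.36 ± 0.05) and Cbx1 (−0.16 ± 0.04) were lower. In TKO cells Rybp (0.26 ± 0.04) was higher and Hdac2 (−0.16 ± 0.05) and Cbx3 (−0.15 ± 0.05) were lower. Cbx1 lost its call without WT PRT4165 replicate 2, and Cbx3 lost its call in TKO cells in DESeq2 and without TKO vehicle replicate 1 or TKO PRT4165 replicate 2. Rybp encodes a subunit that stimulates the H2A ubiquitination of PRC1, and Cbx1 and Cbx3 encode proteins that bind methylated H3K9. In Tet1-KO TKO cells compared with TKO cells, 3 of the 12 were called, or 25%, close to the 22.0% of all genes. Yaf2 (0.55 ± 0.15) and Rnf2 (0.35 ± 0.10) were higher and Tfdp2 (−0.50 ± 0.10) was lower. With library size alone Rnf2 was not called (0.28). The Rnf2 call was lost without any one of the 4 libraries compared, that of Tfdp2 without TKO replicate 2, and that of Yaf2 without either TKO library or without Tet1-KO TKO replicate 2.

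**Figure D3:**
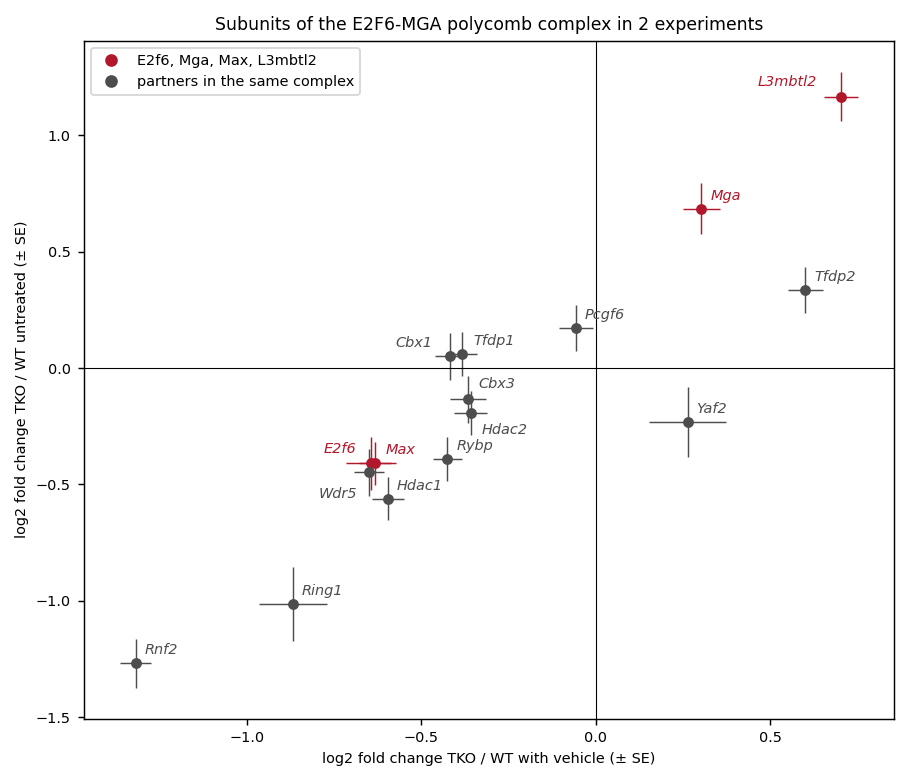
Log2 fold change of TKO over WT cells for the 4 repressors of the complex (red) and their 12 partners (grey), with vehicle on the horizontal axis and untreated on the vertical axis; bars are standard errors. L3mbtl2 and Mga stand at the upper right, and E2f6 and Max lie with Wdr5 and Hdac1 at the lower left, above Ring1 and Rnf2.

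Of 15 other H3K9 methylation genes, 5 were higher and 4 lower in TKO cells with vehicle, and 8 were higher and 1 lower untreated. In each experiment 9 of the 15 were called, beside 69.0% of all genes with vehicle and 50.2% untreated (25.9% higher and 24.3% lower). Library size alone turned the vehicle split to 6 higher and 2 lower. Suv39h1, which encodes an enzyme that trimethylates H3K9 in pericentric heterochromatin, was lower in both experiments, at −0.48 ± 0.07 with vehicle and −0.73 ± 0.12 untreated. Suv39h1 shares exon bases with an antisense transcript, from which unstranded counts could not be separated. Smarcad1, a chromatin remodeller, was higher in both, at 0.34 ± 0.04 and 0.73 ± 0.10. The list as a whole agreed less: the sign was the same in both experiments for 9 of the 15, beside 81.7% of all genes tested in both. Of the 15, 33.3% were called in the same direction, beside 43.6% of all genes, and 1 was called in opposite directions. Of 10 H3K9 demethylase genes, 4 were higher and 3 lower with vehicle (6 and 2 with library size alone), and 3 higher and 1 lower untreated. That is 70.0% called with vehicle and 40.0% untreated, beside the same 69.0% and 50.2% of all genes. Between the experiments the sign was the same for 7 of the 10, beside 81.7% of all genes tested in both. Kdm4d was at 2.59 ± 0.44 with vehicle and 3.93 ± 0.59 untreated, Kdm3a at 0.65 ± 0.04 and 0.93 ± 0.09, and Kdm4a at −0.60 ± 0.05 and −0.46 ± 0.10. The Kdm4a call was lost in untreated cells without TKO replicate 1.

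Among 11 partners and relatives of Trim28, 2 were higher and 6 lower in TKO cells with vehicle, but 4 were higher and 3 lower with library size alone, and 5 were higher and 2 lower untreated. The share called was 72.7% with vehicle, where 34.8% of all genes were higher and 34.2% lower, and 63.6% untreated, beside 50.2% of all genes. Zfp57, whose zinc finger protein brings TRIM28 to methylated imprinted regions, had 313 and 322 CPM in the TKO libraries and 587 and 607 CPM in the WT libraries with vehicle (log2 fold change −0.91 ± 0.04, adjusted p = 3.79e-15). Untreated, it had 257 and 239 CPM in the TKO libraries and 535 and 529 CPM in the WT libraries (log2 fold change −1.10 ± 0.10). With PRT4165 it fell to 425 and 431 CPM in WT cells, against the vehicle values above (−0.48 ± 0.04), and to 217 and 208 CPM in TKO cells (−0.58 ± 0.04). This was not particular to Zfp57. Of the 11, 5 were lower and 1 higher with PRT4165 in WT cells (18.7% and 19.0% of all genes). In TKO cells 6 were lower and 1 higher (19.6% and 19.9% of all genes). Atrx was at −0.54 ± 0.05 in each genotype, and Chd4 at −0.53 ± 0.05 in WT cells and −0.31 ± 0.05 in TKO cells. Zfp809, which directs TRIM28 to retroviral sequence, was higher in TKO cells in both experiments (0.82 ± 0.06 and 0.82 ± 0.14). Between the experiments the sign was the same for 6 of the 11, beside 81.7% of all genes tested in both, and 2 were called in opposite directions.

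The germline genes that these repressors are known to act on were described as a list of 20. It was taken from general knowledge of work on the repressors, but with earlier results of these data known. Its counts beside those of all genes are therefore no independent finding. In TKO cells with vehicle 16 were higher and 3 lower than in WT cells, with a median log2 fold change of 0.85, while 34.8% of all genes tested were higher and 34.2% lower. With PRT4165 9 were higher and 0 lower in WT cells (19.0% and 18.7% of all genes), and 15 were higher and 2 lower in TKO cells (19.9% and 19.6% of all genes). DESeq2 called 10 higher and 2 lower in TKO cells. In TKO cells with PRT4165, compared with WT cells with vehicle, 18 were higher and 1 lower (39.6% and 36.7% of all genes). In untreated TKO cells 9 were higher and 4 lower than in WT cells (25.9% and 24.3% of all genes). In Tet1-KO TKO cells 0 were higher and 11 lower than in TKO cells (11.6% and 10.4% of all genes), and 8 were higher and 10 lower than in WT cells, where 26.3% and 24.4% of all genes were. The trophoblast markers given above also rose in TKO cells. With PRT4165, 5 of the 6 trophoblast markers were higher and 0 lower in each genotype, and 4 of 6 stem cell markers were lower in TKO cells and 5 in WT cells. In Tet1-KO TKO cells against TKO cells all 6 endoderm markers and 5 of 6 trophoblast markers were higher. The part of these markers was not tested.

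Smc1b, a meiotic cohesin subunit, had 44.6 and 43.8 CPM in the TKO libraries and 4.50 and 3.58 CPM in the WT libraries with vehicle (log2 fold change 3.46 ± 0.10). Dazl, whose RNA-binding protein is needed for germ cell development, was at 3.24 ± 0.07 and Hormad1, a component of the axis of meiotic chromosomes, at 2.69 ± 0.08. Untreated, Smc1b, Dazl and Hormad1 were at 2.77 ± 0.16, 2.24 ± 0.11 and 2.06 ± 0.21. The lower ones with vehicle were Tdrd1 (−1.82 ± 0.22) and Mael (−0.51 ± 0.08), both of the piRNA pathway, and Ddx4 (−0.21 ± 0.07), a germ cell RNA helicase whose call was lost in DESeq2, with library size alone and without TKO replicate 2. Tuba3b, a testis tubulin, rose with PRT4165, to 14.6 and 15.3 CPM in WT cells, against 2.86 and 3.08 CPM with vehicle (2.33 ± 0.11), and to 43.4 and 47.9 CPM in TKO cells, against 13.2 and 12.9 CPM with vehicle (1.80 ± 0.08). Tuba3b and Tuba3a are near-identical copies and may share or lose reads in counting. After loss of Tet1, Smc1b fell to 13.0 and 16.6 CPM, against 41.5 and 51.6 CPM in TKO cells (−1.65 ± 0.15). Stra8, which switches on meiosis, was at −2.57 ± 0.20, and Meioc, a meiotic RNA regulator, was at −2.18 ± 0.18.

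**Figure D4:**
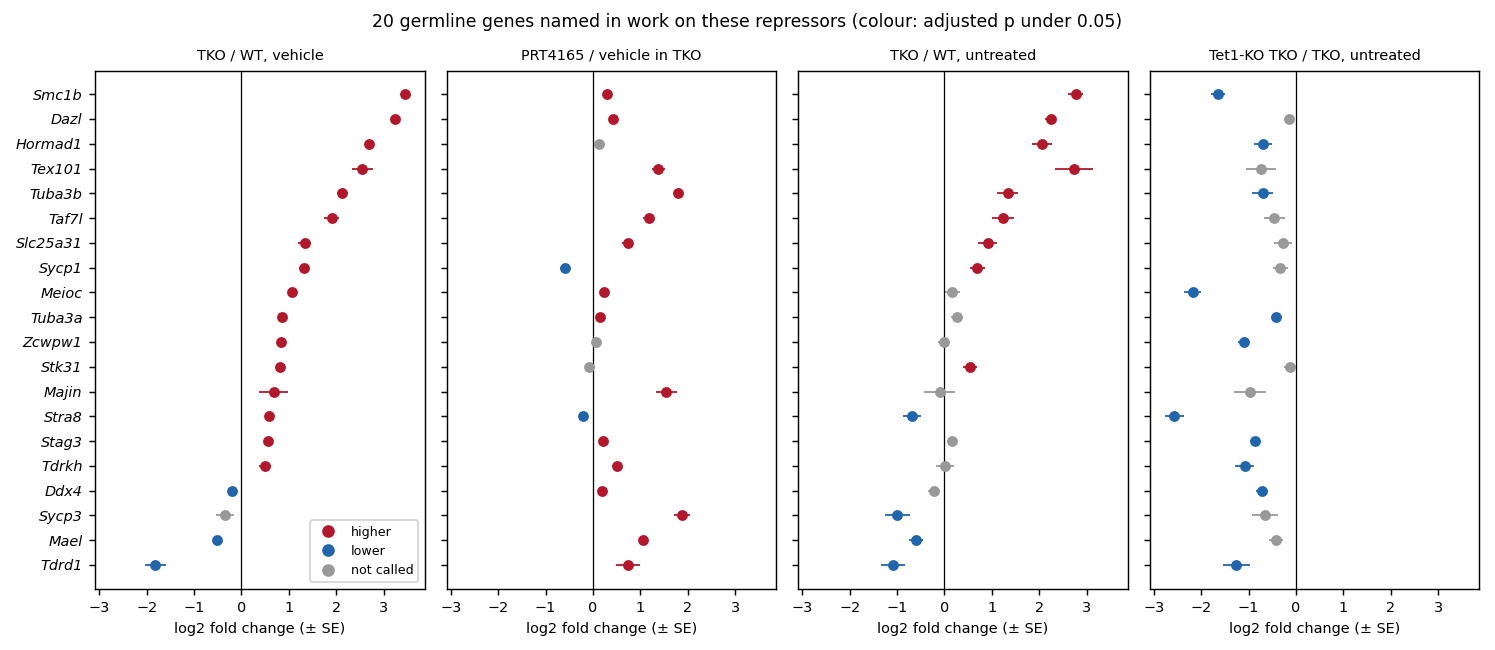
Log2 fold change (horizontal axes, with standard errors) of 20 germline genes in 4 comparisons, ordered by the TKO over WT difference with vehicle; red points were higher, blue points lower and grey points not called at an adjusted p of 0.05. With vehicle 16 points are red, and in the Tet1 comparison 11 are blue and 0 are red.

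The promoters of Smc1b, Tuba3b and Hormad1, picked after their values were seen, are shown because they carry motifs that the complex reads. Capitals mark the E2F motif TTCCCGC, or GCGGGAA where it lies on the other strand, and the E-box CACGTG. They are RefSeq windows of 300 bases (build GRCm38.p6), 5′ to 3′ on the gene's strand.
Smc1b, chr15:85131908-85132207, − strand: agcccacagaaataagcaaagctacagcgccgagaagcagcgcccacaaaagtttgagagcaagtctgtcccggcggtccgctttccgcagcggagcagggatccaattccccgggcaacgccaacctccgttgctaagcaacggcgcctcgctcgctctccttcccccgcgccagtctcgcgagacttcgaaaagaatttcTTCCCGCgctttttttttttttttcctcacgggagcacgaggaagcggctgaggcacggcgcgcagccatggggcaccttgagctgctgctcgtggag
Tuba3b, chr6:145615713-145616012, + strand: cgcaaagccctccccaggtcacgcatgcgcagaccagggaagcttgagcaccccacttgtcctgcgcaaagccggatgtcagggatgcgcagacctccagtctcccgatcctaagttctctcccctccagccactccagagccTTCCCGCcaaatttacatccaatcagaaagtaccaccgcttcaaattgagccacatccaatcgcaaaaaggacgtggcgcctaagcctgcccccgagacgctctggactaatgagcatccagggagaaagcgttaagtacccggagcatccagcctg
Hormad1, chr3:95559427-95559726, + strand: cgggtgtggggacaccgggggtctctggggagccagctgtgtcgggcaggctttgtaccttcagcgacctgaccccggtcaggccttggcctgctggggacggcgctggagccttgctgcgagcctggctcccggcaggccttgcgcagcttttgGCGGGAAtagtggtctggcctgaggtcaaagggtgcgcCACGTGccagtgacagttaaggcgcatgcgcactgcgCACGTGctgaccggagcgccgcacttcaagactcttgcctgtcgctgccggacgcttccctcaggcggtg
Both strands were searched, and no motifs overlap in these windows. Of the 19 listed genes with a promoter in the table, 9 held the E2F motif and 10 the E-box, 5 held both and 5 neither, beside 4.60% and 7.15% of the 32851 promoters. The list was taken from work on these repressors, so these shares are no independent finding. Both motifs hold a CpG, and the promoters compared were not matched for CpG, with a median of 7 over all of them. The counts are also of genes, some with several windows, while the shares are of single promoters. Among the 9 with the E2F motif, 7 were higher and 1 lower in TKO cells with vehicle, and among the 10 without it 8 were higher and 2 lower. Dazl, at 3.24 in that comparison, had no match to either motif in this window. Of the repressors' own promoters, 1 held the E2F motif (Trim28), 2 held the E-box (Max and Ehmt2) and 5 held neither.

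Over the 14 libraries, with each experiment's mean subtracted, several repressors varied together. Pearson's r was 0.97 between E2f6 and Max, 0.95 between Mga and L3mbtl2 and 0.95 between Ehmt1 and Setdb1, and it was −0.87 between E2f6 and L3mbtl2. Trim28 followed none of the others beyond 0.38. The 14 libraries form 7 groups and share genotype, so these values only describe the similarity of the patterns. Among 11992 protein-coding genes with a mean of at least 1 CPM, the pattern most like that of E2f6 was Lancl1 (r = 0.98), that of Mga was Kif2a (0.98), that of Max was Abcf2 (0.996) and that of L3mbtl2 was Dusp27 (0.99). The closest to Setdb1 was Sms (0.98).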

How the data were processed

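Poly(A) RNA of J1 cells was sequenced in 14 libraries. The authors deposited a table of raw counts for each experiment, with a column per library. HTSeq 0.5.3p9, TopHat2 2.0.2, Bowtie 0.12.8 and the build mm9 are named in the submitters' processing notes. The sources used here give neither the annotation release nor the strand setting. Symbols and exon lengths came from a GENCODE annotation of a later build, which matched 32938 of 37991 identifiers. Identifiers without a match held 0.482% to 0.850% of a library's counts.

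Experiments were fitted separately in edgeR 4.0.16 (R 4.3.3, limma 3.58.1) on all groups of the experiment, with TMM scaling and filterByExpr (minimum count 10, minimum total 15), which kept 16711 and 16303 genes and all 8 repressors. Contrasts were tested two-sided by the quasi-likelihood F-test, Benjamini-Hochberg adjusted over all genes tested, and called at an adjusted p under 0.05. CPM use the same scaling. The edgeR steps were tested on simulated counts in which few genes changed. That does not test the scaling in comparisons where most genes were called. DESeq2 1.42.0, other scalings, no filter, a replicate block and leaving out each library were alternatives. The biological coefficient of variation was 3.73% and 10.5%. Nothing in the labels says that replicates came from separate cultures, so the p-values rest on a spread between libraries that may be technical. Replicate libraries differed by more than sampling noise in each group (mean chi-square per gene 1.81 to 37.1).

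Named genes were the 8 repressors, the targeted genes and, per list and comparison, at most 3 called genes in each direction with the smallest p and non-overlapping libraries. Members and lists were chosen with earlier results of these data known. The genes most like Ehmt1, Ehmt2 and Trim28 in pattern are not reported here.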

Additional observations from a re-analysis of the deposited data

Results flagged for a closer look

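Some genes related to the repressors responded differently to PRT4165 in TKO cells than in WT cells, by edgeR's interaction test over the 4 groups of experiment 1. The difference, the log2 response in TKO cells minus that in WT cells, was −1.25 for Mycn (adjusted p = 1.32e-09), which encodes a MAX partner. Mycn was lower with PRT4165 in TKO cells (93.5 and 90.3 CPM with PRT4165, 129 and 132 CPM with vehicle) and higher with it in WT cells (56.0 and 67.4 CPM with PRT4165, 36.0 and 37.2 CPM with vehicle). It was 0.36 for E2f4, 0.38 for E2f2 and 0.38 for E2f8, which encode other E2F factors. It was −0.26 for Resf1, a cofactor of SETDB1. Among the germline genes it was −0.53 for Smc1b, −0.52 for Tuba3b and −0.75 for Taf7l. Mycn and E2f4 passed in each alternative run. DESeq2 did not call E2f8, Smc1b, Tuba3b or Taf7l, with adjusted p from 0.0551 to 0.102, and each of the 6 genes other than Mycn and E2f4 lost its call without at least one of the libraries.

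Stra8 was called in opposite directions in the 2 experiments, with non-overlapping libraries in each. It was higher in TKO than in WT cells with vehicle (82.7 and 81.7 CPM in TKO, 55.5 and 55.1 CPM in WT) and lower untreated (44.5 and 31.3 CPM in TKO, 54.4 and 67.8 CPM in WT), a difference of −1.26 on the log2 scale. That difference was not tested, and the untreated call was lost without WT replicate 2 or TKO replicate 2.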

How the results depend on the processing

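The 64 results on the repressors (8 genes in 8 comparisons) were recomputed under 840 alternatives in all. In 792 the direction and the side of the threshold were the same or the gene was uncalled in both, in 25 a call was lost, in 23 one was gained, and in 0 a called direction was reversed. With library size alone, 63.5% of the calls between TKO and WT cells with vehicle were higher, against 50.5% with TMM, and 40.6% against 52.9% between Tet1-KO TKO and TKO cells.

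The number of repressors called moved by over 1.5 times in 3 comparisons. For PRT4165 in TKO cells it was 2 with RLE size factors and with only the 2 groups compared, and 1 to 2 when 1 library was left out. For TKO against WT untreated it was 3 to 8 when 1 library was left out. For Tet1-KO TKO against TKO it was 2 with library size alone, without the filter, in DESeq2 and with only the 2 groups compared, and 0 to 2 when 1 library was left out. Of all genes, the interaction called 650, 415 in DESeq2 and 304 to 913 when 1 library was left out, and Tet1-KO TKO against TKO called 3584, and 1633 to 4510 when 1 library was left out. The cause was not tested.

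Same-numbered libraries deviated together with r between −0.03 and 0.04 in experiment 1 and between 0.11 and 0.24 in experiment 2, and with 2 numbers per group this does not settle whether the numbers pair the libraries. With the replicate block, 2 repressors were called for Tet1-KO TKO against TKO, L3mbtl2 and Mga (−0.32, adjusted p = 0.0402), and no other call on a repressor changed. The 2 libraries of each group limit the smallest difference that could be called.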

Other observations

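The other E2F and MAX-network genes, 19 in all, share motifs and partners with E2f6, Mga and Max. In TKO cells with vehicle 6 were higher and 6 lower, and 8 were higher and 5 lower with library size alone. Untreated, 6 were higher and 3 lower. The share called was 63.2% with vehicle and 47.4% untreated, beside 69.0% and 50.2% of all genes. Mycn had 129 and 132 CPM in the TKO libraries and 36.0 and 37.2 CPM in the WT libraries with vehicle (1.83 ± 0.06 on the log2 scale), and 255 and 247 CPM in TKO, against 67.1 and 48.4 CPM in WT, untreated (2.12 ± 0.14). Mxd4, which encodes a MAX partner that represses, was higher with vehicle at 1.69 ± 0.09 and untreated at 1.02 ± 0.15. Myc was lower in both experiments, at −0.89 ± 0.06 with vehicle and −0.89 ± 0.18 untreated, as was E2f2, an activating E2F, at −1.91 ± 0.06 and −2.05 ± 0.15. E2f4, a repressive E2F, was lower with vehicle at −0.92 ± 0.05 and untreated at −0.31 ± 0.11. Between the experiments the sign was the same for 13 of the 19, beside 81.7% of all genes tested in both. With PRT4165, 8 of the 19 were lower and 4 higher in TKO cells, where 19.6% of all genes were lower and 19.9% higher, and 8 were lower and 3 higher in WT cells, where 18.7% were lower and 19.0% higher. DESeq2 called 5 lower and 2 higher in WT cells.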
